A study of Mus musculus with 6 samples.

Results

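The genes described here are the mouse ubiquitin-conjugating enzymes named *Ube2* followed by a letter and the ubiquitin-specific proteases named *Usp* followed by a number. All rows of the table with a protein-coding biotype and such a name were taken, which gave 93 genes, 37 *Ube2* genes and 56 *Usp* genes, of 54532 genes in all and 22046 protein-coding genes. A pair of them match by name without belonging to the enzyme class. *Ube2cbp* encodes a protein that binds the E2 enzyme UBE2C, and *Usp6nl* encodes a GTPase-activating protein. RNA-seq was performed on STRA8-positive (STRA8+) germ cells isolated from mouse testes, in 3 control libraries whose genotype is given as Cre and 3 libraries of *Srsf1* knockout cells, called cKO because the treatment is given as a conditional knockout. STRA8 is induced by retinoic acid in differentiating spermatogonia and in germ cells that enter meiosis, and SRSF1 is a serine/arginine-rich splicing factor. The age of the mice, their strain and the promoter that drives Cre are not given in the labels. The labels also do not say whether the libraries of a group came from separate animals, so the p-values measure only the spread between these libraries.

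Ubiquitin is attached to proteins by a relay of enzymes. An E1 enzyme activates it, an E2 enzyme carries it as a thioester, and an E3 ligase brings the loaded E2 to its substrate. The E2 often decides which kind of chain is built, and related E2 enzymes carry NEDD8, ISG15 and other modifiers in place of ubiquitin. USP proteins are cysteine proteases that take ubiquitin off again and form the largest class of deubiquitinases. In the testis the system is known for histone ubiquitination during meiosis, for the silencing of the sex chromosomes in pachytene spermatocytes and for the exchange of histones for protamines in spermatids.

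Between 15364511 and 17310353 fragments per library were counted on genes in the control group, and between 14447887 and 15326722 in the cKO group. *Srsf1*, the targeted gene, measured 84.7, 45.2 and 51.9 FPKM (fragments per kilobase of gene, corrected for library size) in Control 1 to 3 and 5.08, 4.94 and 5.17 FPKM in cKO 1 to 3. *Stra8* measured 222 to 313 FPKM in the 6 libraries. The other 9 genes on a list of STRA8+ and early germ cell markers were also detected in all libraries, and of the 10 *Dazl* rose (log2 fold change 0.43), *Rec8* (-0.56) and *Ddx4* (-0.24) fell and 7 were not called. Of 7 undifferentiated spermatogonia markers tested, *Ret* rose (0.57) and *Id4* fell (-1.30). The control libraries also held RNA of later germ cells. The summed level of 10 spermatid markers was 2423, 8119 and 2395 FPKM in Control 1 to 3 and 5.90 to 7.24 FPKM in the cKO libraries, and 9 of 10 pachytene spermatocyte markers and 10 of 10 spermatid markers fell. Control 2 stood apart from the other controls, with spermatid markers at 1.47 to 3.65 times the mean of Control 1 and Control 3. Its summed Leydig and peritubular markers (18.3 FPKM) were 3.15 times that mean, most of it from *Insl3* (2.14, 9.74 and 0 FPKM in Control 1 to 3), and its macrophage and blood markers (8.45 FPKM) 1.66 times. Of the Sertoli cell markers 1 of 8 tested rose (*Rhox5*), and none of 3 Leydig and peritubular markers or 2 macrophage and blood markers passed the test. In bulk samples such as these, fewer cells of a type and less RNA per cell cannot be told apart.

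On the log2(FPKM + 1) scale used for the test, the largest falls among the genes tested were those of *Ube2d2b* and *Ube2u* and the largest rise was that of *Usp26*. Genes at 0 in a whole group, whose folds are known only as bounds, are described further on. The promoters of *Ube2d2b*, *Ube2u* and *Usp26* are shown first because these genes lead the differences on that scale. Each sequence was taken from RefSeq on GRCm38.p6 and runs from 250 bases before to 50 bases after the start that RefSeq gives, which for *Ube2d2b* and *Ube2u* lies downstream of the gene start in the deposited table. The sequences lie at chr5:107829912-107830211 on the plus strand for *Ube2d2b*, chr4:100478617-100478916 on the plus strand for *Ube2u* and chrX:51801184-51801483 on the minus strand for *Usp26*. Capitals mark the core letters AACTG, or CAGTT on the opposite strand, which MYB-family factors recognise. MYBL1 is the MYB factor of pachytene spermatocytes, and *Mybl1* was the 1 of 10 pachytene markers that did not pass the test (19.1 ± 3.7 FPKM in controls and 19.3 ± 3.9 FPKM in cKO cells, limma adjusted p = 0.96).
Ube2d2b: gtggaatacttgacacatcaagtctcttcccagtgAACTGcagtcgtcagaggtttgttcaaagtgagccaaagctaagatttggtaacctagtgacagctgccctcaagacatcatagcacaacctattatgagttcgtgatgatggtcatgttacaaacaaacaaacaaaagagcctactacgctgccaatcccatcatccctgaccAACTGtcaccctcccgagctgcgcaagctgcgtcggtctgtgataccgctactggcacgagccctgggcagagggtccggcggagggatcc
Ube2u: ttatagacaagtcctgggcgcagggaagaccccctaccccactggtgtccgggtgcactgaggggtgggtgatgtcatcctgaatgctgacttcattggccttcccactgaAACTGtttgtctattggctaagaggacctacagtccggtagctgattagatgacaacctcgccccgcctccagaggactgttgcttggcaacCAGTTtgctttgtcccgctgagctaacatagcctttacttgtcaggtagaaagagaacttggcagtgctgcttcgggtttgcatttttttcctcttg
Usp26: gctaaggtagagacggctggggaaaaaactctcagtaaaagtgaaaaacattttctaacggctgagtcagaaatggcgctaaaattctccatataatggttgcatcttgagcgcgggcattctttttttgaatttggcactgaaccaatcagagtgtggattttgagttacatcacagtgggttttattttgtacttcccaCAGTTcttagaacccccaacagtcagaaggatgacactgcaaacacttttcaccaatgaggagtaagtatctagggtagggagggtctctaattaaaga

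A promoter of 300 bases was matched for 73 of the 93 genes. AACTG, on either strand, was the only form of the MYB core searched. It stood 2 times in the *Ube2d2b* promoter, 2 times in that of *Ube2u* and 1 time in that of *Usp26*. It was present in 44.8% of all 32851 promoters, and in 4 of 13 promoters of genes that fell, 5 of 9 of genes that rose and 12 of 41 of genes that were not called. The cAMP response element TGACGTCA, which reads the same on both strands, was present in 1.79% of all promoters, in 0 of the 13, 0 of the 9 and 2 of the 41. The *Ube2d2b*, *Ube2u* and *Usp26* promoters held 11, 7 and 5 CpG dinucleotides. The median was 33 in the genes that fell, 20 in those that rose, 30 in those not called and 7 in all promoters. Each of the 3 printed promoters thus held fewer CpG than the median of the genes that rose, of those that fell and of those not called.

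Of the 93 genes, 80 averaged 1 FPKM or more across the 6 libraries and were tested with limma on log2(FPKM + 1), with Benjamini-Hochberg adjustment over all 15451 genes tested and a threshold of 0.05. The fit used limma's trend of variance with level, and a call that ended without this trend, without the filter on FPKM, without the factor for each library that the deposited FPKM carry or under another scaling is noted beside the gene. All log2 fold changes below are cKO minus control on this scale, which makes changes of weakly expressed genes look smaller than they are. In cKO cells 11 of the 80 genes rose, which is 13.8%, beside 11.8% of all genes tested. A further 15 fell, which is 18.8%, beside 22.2% of all genes tested, and 54 were not called. Control and cKO values did not overlap for 46 of the 80 genes (57.5%), beside 50.4% of all genes. These shares were close to the background, so the group as a whole did not stand out, and the median log2 fold change was -0.0048 beside -0.0082 for all genes tested. The smallest p that exact permutation of 3 against 3 libraries allows for any 1 gene is 0.1.

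Both families held rises and falls. Counts here and in the lists below stand beside 11.8% of all genes tested that rose and 22.2% that fell. Of 34 *Ube2* genes tested, 3 rose, 8 fell and 23 were not called, with a median log2 fold change of -0.066. Of 46 *Usp* genes tested, 8 rose, 7 fell and 31 were not called, with a median of 0.011. Under quantile normalization, which moved the median of all genes to 0.215, the counts became 10 higher and 5 lower for *Ube2* genes and 19 higher and 5 lower for *Usp* genes. The count of *Ube2* rises was 1 without Control 3 or cKO 3, that of *Ube2* falls was 5, 5 and 4 without cKO 1, 2 and 3, and that of *Usp* rises was 5 without Control 1. Over all genes tested the rises went from 1821 to 1079 without Control 3, 969 without cKO 3 and 1068 without Control 1, and the falls from 3437 to 2944, 3027 and 2693 without cKO 1, 2 and 3. The summed level of all 93 genes was 1724 to 1777 FPKM in the controls and 1665 to 1733 FPKM in cKO cells, so the totals of the groups lay close together.

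**Figure D1:**
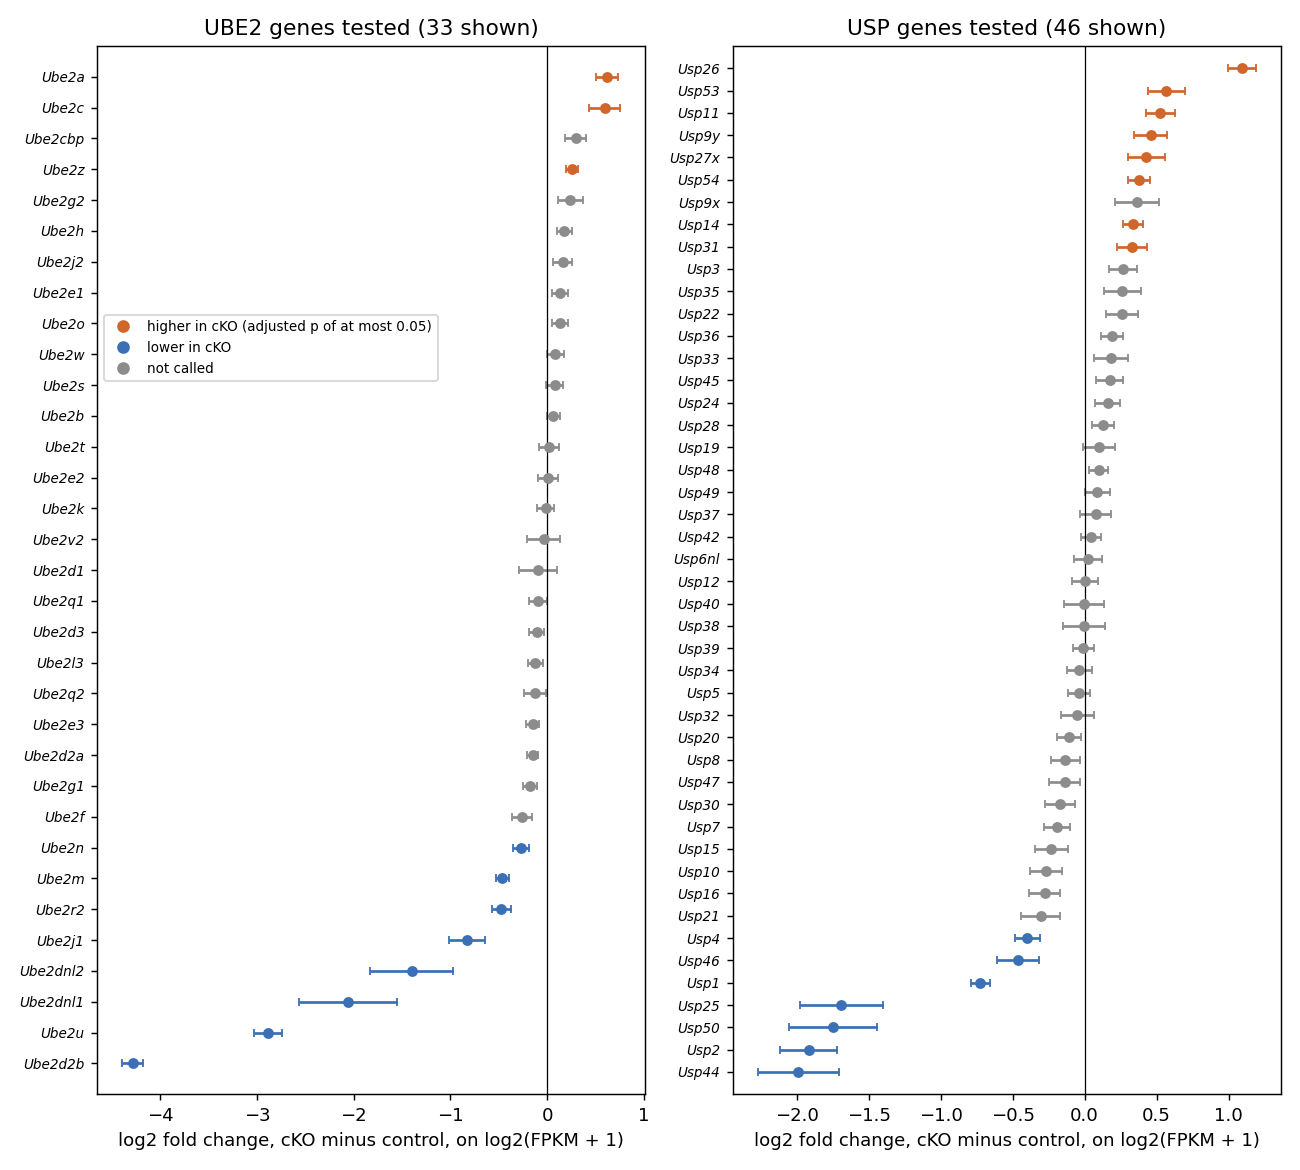
Log2 fold change (cKO minus control, on log2(FPKM + 1)) with its standard error for 33 of the 34 *Ube2* genes and the 46 *Usp* genes tested, each panel on its own scale, coloured by call (n = 3 libraries per group). Most genes lie close to 0, and the falls of *Ube2d2b* (-4.29) and *Ube2u* (-2.89) are the largest differences on this scale in either panel.

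The UBE2D enzymes are promiscuous E2 enzymes that work with many E3 ligases. *Ube2d2b* (ENSMUSG00000063447, chromosome 5, 107830099 to 107831776 on mm10, plus strand) is annotated with 1 transcript of 1 exon. It measured 29.8, 30.5 and 28.6 FPKM in Control 1 to 3 and 0.607, 0.733 and 0.392 FPKM in cKO 1 to 3. The cKO level was 1.95% of the control level, with a log2 fold change of -4.29 (SE 0.11, limma adjusted p = 1.5e-06). The control libraries lay close together, and 785 to 830 fragments per control library were left as 10 to 18 fragments per cKO library. All 100-base windows of its transcript were unique among annotated genes, and none was shared with its relative *Ube2d2a*.

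The other *Ube2d* genes are expressed in most tissues. *Ube2d2a* had the highest FPKM of all 93 genes in the controls. It measured 71.8 ± 1.5 FPKM (SD, n = 3) in controls and 64.6 ± 2.0 FPKM in cKO cells. Its groups were apart, but the limma adjusted p was 0.095. *Ube2d3* measured 14.4 ± 0.75 and 13.3 ± 0.70 FPKM (adjusted p = 0.34), and *Ube2d1* 1.93 ± 0.32 and 1.78 ± 0.56 FPKM (adjusted p = 0.73). The sum over these 4 genes went from 118 to 80.2 FPKM, most of which was the difference in *Ube2d2b*. FPKM divide by the deposited gene length, which for *Ube2d3* was 24499 bases beside a longest coding transcript of 3833 bases. *Ube2d3* held 5090 to 6122 fragments per control library, beside 2701 to 3050 for *Ube2d2a*. The order of different genes by FPKM, and the share of each gene in this sum, thus depend on these lengths. The related *Ube2e1*, *Ube2e2* and *Ube2e3* did not pass the test, with log2 fold changes from -0.15 to 0.13.

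*Ube2dnl1* and *Ube2dnl2* are neighbouring X-linked genes named for their likeness to the UBE2D N terminus. *Ube2dnl1* measured 1.55, 9.13 and 1.79 FPKM in Control 1 to 3 and was at 0 in every cKO library. *Ube2dnl2* measured 0.980, 4.48 and 0.700 FPKM in the controls and was also at 0 in every cKO library. Against a floor of 3 fragments per library, *Ube2dnl1* was at least 15.6-fold lower and *Ube2dnl2* at least 7.72-fold lower in cKO cells. Control 2 decided the size of both control means, at 5.47 and 5.33 times the mean of the other controls. Without it the bounds were at least 6.28-fold and at least 3.16-fold. The limma adjusted p was 0.020 for *Ube2dnl1* and 0.043 for *Ube2dnl2*. Without Control 2 the log2 fold changes were -1.42 and -0.88, with an adjusted p of 3.6e-04 and 0.0040. The call of *Ube2dnl1* was lost without any 1 of the cKO libraries (adjusted p = 0.057 to 0.061), and that of *Ube2dnl2* without Control 1 (0.060) or any 1 cKO library (0.10 to 0.11). *Ube2dnl2* also lost its call without the filter (0.084) and under quantile normalization (log2 fold change -0.71, adjusted p = 0.24). The transcripts of this pair shared 3.6% of their 100-base windows with each other.

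*Ube2u* (ENSMUSG00000069733, chromosome 4, 100478849 to 100550147, plus strand) encodes an E2 of which little is known. It measured 12.4, 11.5 and 9.55 FPKM in Control 1 to 3 and 0.828, 0.444 and 0.642 FPKM in cKO 1 to 3. The cKO level was 5.72% of the control level (log2 fold change -2.89, SE 0.14, limma adjusted p = 1.6e-05). As in *Ube2d2b*, the control libraries were alike, with Control 2 at 1.05 times the mean of the other controls. The summed level of the 10 pachytene spermatocyte markers moved with both genes, from 774, 822 and 670 FPKM in Control 1 to 3 to 138, 120 and 120 FPKM in cKO 1 to 3. The part of pachytene RNA in the falls of *Ube2d2b* and *Ube2u* was not tested. The other E2 enzymes of general or little known role were not called. *Ube2h*, *Ube2l3*, *Ube2o*, *Ube2q1* and *Ube2q2* had log2 fold changes from -0.12 to 0.17, and *Ube2o*, the most abundant of them, measured 57.7 ± 1.5 and 63.5 ± 5.7 FPKM.

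Several E2 enzymes act at the endoplasmic reticulum or build chains that send proteins to the proteasome. *Ube2j1*, anchored in the endoplasmic reticulum membrane and needed for sperm formation in mice, measured 36.3, 49.9 and 31.4 FPKM in Control 1 to 3 and 18.05, 25.0 and 21.1 FPKM in cKO 1 to 3. The groups were apart, with a log2 fold change of -0.83 (SE 0.19, limma adjusted p = 0.014). Its relative *Ube2j2* measured 37.2 ± 3.5 FPKM in controls and 41.8 ± 3.4 FPKM in cKO cells and was not called (adjusted p = 0.24). *Ube2r2*, a CDC34 relative that serves cullin ligases, fell from 13.8 ± 1.3 to 9.67 ± 0.89 FPKM (log2 fold change -0.47, SE 0.10, limma adjusted p = 0.012), a call lost without cKO 3 (adjusted p = 0.052) and under quantile normalization (log2 fold change -0.29, adjusted p = 0.051). *Ube2g1*, *Ube2g2* and *Ube2k* were not called, with log2 fold changes from -0.18 to 0.24.

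The E2 enzymes of DNA repair include RAD6, encoded in mice by *Ube2a* on the X chromosome and *Ube2b* on chromosome 11, which ubiquitinates histones and the replication clamp. *Ube2a* measured 7.91, 7.24 and 6.26 FPKM in Control 1 to 3 and 12.2, 12.0 and 10.2 FPKM in cKO 1 to 3, so all cKO libraries were above all controls. The rise was 1.61-fold (log2 fold change 0.62, SE 0.11, limma adjusted p = 0.0061). *Ube2b*, without which male mice are infertile, measured 62.4, 65.4 and 60.3 FPKM in controls and 62.7, 68.3 and 65.7 FPKM in cKO cells. These values overlapped, with a log2 fold change of 0.063 (SE 0.066, adjusted p = 0.50), and *Ube2b* stayed the more abundant of the RAD6 genes in every library.

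*Ube2n*, which builds non-proteolytic chains with *Ube2v1* or *Ube2v2*, fell from 57.5 ± 5.8 to 47.5 ± 0.73 FPKM (log2 fold change -0.27, SE 0.083, limma adjusted p = 0.046). This call was lost without Control 2 (adjusted p = 0.064), Control 3 (0.085), cKO 1 (0.11), cKO 2 (0.085) or cKO 3 (0.13). It was also lost under quantile normalization (log2 fold change -0.17, adjusted p = 0.10), without the filter (0.077), without the library factor (0.091), without the trend (0.083) and with limma-voom (0.087), and 91.8% of its windows were unique, the rest being shared with copies such as *Ube2nl*. *Ube2v2* was not called (log2 fold change -0.036, adjusted p = 0.89), and *Ube2v1*, of which 45.7% of windows were unique, was below the filter. *Ube2t*, the E2 of the Fanconi anaemia pathway, measured 28.7, 23.6 and 28.2 FPKM in controls and 25.4, 30.1 and 25.9 FPKM in cKO cells (adjusted p = 0.91). *Ube2w*, which attaches ubiquitin to protein N termini, was not called either (adjusted p = 0.49).

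*Ube2c* and *Ube2s* serve the anaphase-promoting complex, *Ube2c* by starting chains and *Ube2s* by extending them. *Ube2c* measured 12.8, 18.3 and 13.8 FPKM in Control 1 to 3 and 27.1, 20.0 and 22.2 FPKM in cKO 1 to 3. The groups were apart by a small margin, with a log2 fold change of 0.59 (SE 0.16, limma adjusted p = 0.027). The call was lost without Control 1 (adjusted p = 0.087), Control 3 (0.084), cKO 1 (0.081) or cKO 3 (0.072) and without the filter (0.056), and 22.8% of its exon bases overlap *Tnnc2* on the opposite strand, whose reads cannot be told apart if strand was not used. *Ube2s* measured 66.8 ± 5.5 FPKM in controls and 70.4 ± 4.9 FPKM in cKO cells (log2 fold change 0.077, adjusted p = 0.53).

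Of the 4 E2 enzymes of ubiquitin-like modifiers tested, 1 rose, 1 fell and 2 were not called. *Ube2m*, which loads NEDD8 onto cullin ligases, measured 39.0, 37.8 and 37.2 FPKM in Control 1 to 3 and 28.8, 27.1 and 26.0 FPKM in cKO 1 to 3. With little spread in either group the log2 fold change was -0.46 (SE 0.066, limma adjusted p = 0.0021). *Ube2f*, the other NEDD8 E2, measured 10.6 ± 0.91 and 8.66 ± 0.78 FPKM, with the groups apart and an adjusted p of 0.088. *Ube2z*, which takes ubiquitin and FAT10 from the E1 enzyme UBA6, rose from 55.2 ± 2.7 to 66.2 ± 0.73 FPKM (log2 fold change 0.26, SE 0.063, limma adjusted p = 0.019), a call lost without Control 3 (adjusted p = 0.071) or cKO 3 (0.075) and without the trend (0.051). *Ube2l6*, the ISG15 E2, was below the filter.

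Among the *Usp* genes, *Usp26* (ENSMUSG00000055780, chromosome X, 51753959 to 51801233, minus strand), a deubiquitinase expressed mainly in testis, had the largest rise among those tested. It measured 20.5, 20.8 and 25.4 FPKM in Control 1 to 3 and 48.1, 50.6 and 46.3 FPKM in cKO 1 to 3. The rise was 2.17-fold (log2 fold change 1.09, SE 0.096, limma adjusted p = 2.0e-04), and the lowest cKO library was far above the highest control. It was the only *Usp* gene with a rise of at least 1 on the log2 scale among those tested, and no *Ube2* gene rose by that much.

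The falls among the *Usp* genes were led by 4 genes. *Usp2*, a protease abundant in testis whose loss makes male mice subfertile, measured 24.2, 39.2 and 22.7 FPKM in Control 1 to 3 and 6.99, 6.09 and 6.87 FPKM in cKO 1 to 3 (log2 fold change -1.92, SE 0.20, limma adjusted p = 4.5e-04). *Usp44*, a histone deubiquitinase that also guards the mitotic checkpoint, measured 5.63, 13.0 and 6.51 FPKM in controls and 1.10, 1.05 and 1.58 FPKM in cKO cells (log2 fold change -1.99, SE 0.28, adjusted p = 0.0020). In both genes no cKO library reached the lowest control. *Usp50*, a small USP of little known function, measured 3.79, 9.31 and 4.69 FPKM in controls and 0.533, 1.30 and 1.10 FPKM in cKO cells (log2 fold change -1.75, SE 0.31, adjusted p = 0.0051). *Usp25* measured 4.53, 11.1 and 5.49 FPKM in controls and 1.62, 1.30 and 1.15 FPKM in cKO cells (log2 fold change -1.69, SE 0.29, adjusted p = 0.0045). The cKO level of these 4 genes was 14.9% to 23.2% of the control level. *Usp28*, the closest relative of *Usp25*, measured 21.8 ± 1.5 FPKM in controls and 23.8 ± 0.82 FPKM in cKO cells and was not called (adjusted p = 0.24).

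All 4 of these *Usp* genes were highest in Control 2, the control library with the highest sums of spermatid, of Leydig and peritubular and of macrophage and blood markers. Control 2 was 1.67 times the mean of Control 1 and Control 3 for *Usp2*, 2.14 times for *Usp44*, 2.19 times for *Usp50* and 2.21 times for *Usp25*. Together with *Ube2dnl1* and *Ube2dnl2*, these made 6 of the 15 genes that fell with Control 2 above 1.5 times the mean of the other controls. Without Control 2 the log2 fold changes were -1.68 for *Usp2*, -1.66 for *Usp44*, -1.42 for *Usp50* and -1.35 for *Usp25*, and all 4 kept an adjusted p of at most 0.05. *Ube2d2b* and *Ube2u* did not share this spread and gave -4.27 and -2.87 without Control 2. The summed spermatid markers were 2423, 8119 and 2395 FPKM in Control 1 to 3 and 5.90 to 7.24 FPKM in the cKO libraries. The Leydig and peritubular sum was 7.22, 18.3 and 4.38 FPKM in Control 1 to 3 and 14.3, 9.99 and 14.9 FPKM in cKO 1 to 3. The macrophage and blood sum was 5.27, 8.45 and 4.94 FPKM in Control 1 to 3 and 5.16, 6.46 and 5.32 FPKM in cKO 1 to 3. The part of RNA of any of these cell types in the falls was not tested.

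**Figure D2:**
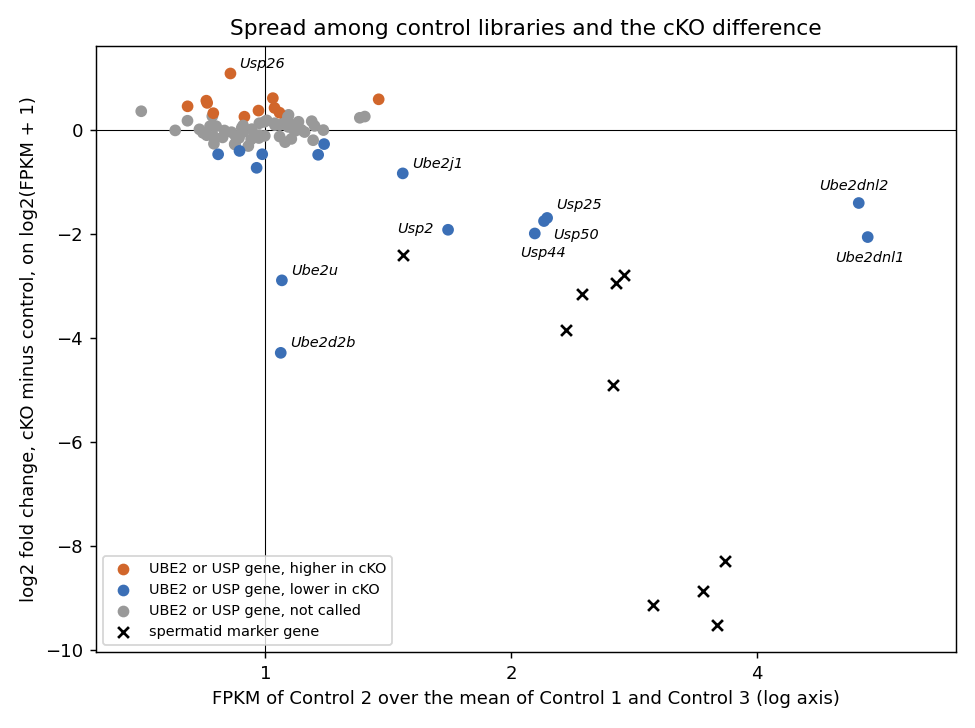
Log2 fold change (cKO minus control, on log2(FPKM + 1)) against the ratio of Control 2 to the mean of Control 1 and Control 3 (log axis) for the 80 genes tested and 10 spermatid markers (crosses). *Usp2*, *Usp44*, *Usp50*, *Usp25* and the *Ube2dnl* pair lie at ratios from 1.67 to 5.47 with log2 fold changes from -1.40 to -2.06, the markers at ratios from 1.47 to 3.65 with log2 fold changes from -2.41 to -9.52, while *Ube2d2b* and *Ube2u* fell with ratios of 1.04 and 1.05.

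USP1 removes ubiquitin from the replication clamp and from FANCD2 and works in a complex with WDR48, which USP12 and USP46 also bind. *Usp1* measured 60.1, 56.2 and 55.2 FPKM in Control 1 to 3 and 33.6, 35.8 and 33.2 FPKM in cKO 1 to 3. The cKO level was 59.8% of the control level (log2 fold change -0.72, SE 0.067, limma adjusted p = 2.6e-04), and 91.1% of its windows were unique, the others being shared with *Gm5841*. *Wdr48* itself fell from 24.2 ± 1.7 to 17.8 ± 1.1 FPKM (log2 fold change -0.43, SE 0.083, adjusted p = 0.0078). *Usp46* fell from 1.53 ± 0.12 to 0.839 ± 0.18 FPKM (log2 fold change -0.46, SE 0.15, adjusted p = 0.048). That call was lost without Control 1 (0.11), Control 3 (0.13), cKO 1 (0.077), cKO 2 (0.12) or cKO 3 (0.088), without the filter (0.091), without the library factor (0.060) and under quantile normalization (log2 fold change -0.066, adjusted p = 0.74). *Usp12*, its close relative, measured 15.6 ± 1.6 FPKM in controls and 15.6 ± 0.43 FPKM in cKO cells (adjusted p = 0.99).

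*Usp4*, *Usp11* and *Usp15* form a trio of related proteases, and USP4 and USP15 act on the spliceosome with SART3. *Usp4* measured 12.2, 10.9 and 11.3 FPKM in Control 1 to 3 and 8.34, 7.99 and 9.04 FPKM in cKO 1 to 3 (log2 fold change -0.40, SE 0.086, limma adjusted p = 0.012), and under quantile normalization the adjusted p was 0.15. *Usp11*, on the X chromosome and active in DNA repair, measured 10.4, 8.55 and 9.74 FPKM in controls and 15.4, 14.0 and 13.2 FPKM in cKO cells. It moved the opposite way, with a log2 fold change of 0.53 (SE 0.10, adjusted p = 0.0071). *Usp15* measured 7.53 ± 0.42 and 6.30 ± 0.90 FPKM and was not called (adjusted p = 0.16). *Usp39*, a splicing factor that has lost its protease activity, measured 27.3, 30.5 and 28.9 FPKM in controls and 27.2, 28.5 and 30.4 FPKM in cKO cells (log2 fold change -0.0081, SE 0.075, adjusted p = 0.94).

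The remaining histone deubiquitinases of the list mostly did not pass the test. Of 9 tested, 1 rose, 1 fell (*Usp44*) and 7 were not called. *Usp16*, which acts on histones at mitosis, measured 12.2, 10.6 and 10.9 FPKM in controls and 8.50, 10.4 and 8.44 FPKM in cKO cells, with the groups apart but an adjusted p of 0.091, which became 0.042 without cKO 2. *Usp42*, known in mouse testis, measured 23.2 ± 0.91 and 24.0 ± 1.2 FPKM (adjusted p = 0.65). *Usp3*, *Usp21*, *Usp36* and *Usp49* had log2 fold changes of 0.27, -0.31, 0.19 and 0.089, with the groups apart in the first 3. The gene that rose was *Usp27x*, X-linked and with at most 2 exons, which shares the cofactor ATXN7L3 with *Usp22* and *Usp51*. *Usp27x* measured 2.67, 2.94 and 3.07 FPKM in Control 1 to 3 and 4.98, 3.66 and 4.15 FPKM in cKO 1 to 3 (log2 fold change 0.43, SE 0.13, adjusted p = 0.040). Its call was lost without Control 1 (0.11), Control 2 (0.065), Control 3 (0.080), cKO 1 (0.11) or cKO 3 (0.11) and without the filter (0.068). *Usp22*, the SAGA subunit, measured 24.3 ± 1.1 and 29.4 ± 4.3 FPKM (adjusted p = 0.12), and *Usp51* was below the filter at 0.490 ± 0.16 and 0.615 ± 0.10 FPKM.

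*Usp9x* and *Usp9y* are an X and Y pair that encode very similar large proteases. *Usp9y* rose from 9.33 ± 1.2 to 13.2 ± 1.2 FPKM, with control libraries at 9.57, 8.02 and 10.4 FPKM and cKO libraries at 13.0, 14.4 and 12.1 FPKM (log2 fold change 0.46, SE 0.12, limma adjusted p = 0.021). The call was lost without Control 1 (0.053), cKO 1 (0.058) or cKO 2 (0.067). *Usp9x* measured 28.0, 20.0 and 28.7 FPKM in controls and 30.9, 37.4 and 30.5 FPKM in cKO cells. Its groups were apart and its log2 fold change was 0.36 (SE 0.15), but it was not called (adjusted p = 0.11), although it passed with limma-voom (0.041) and under quantile normalization (0.045). No 100-base window of *Usp9y* occurred in another annotated gene.

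**Figure D3:**
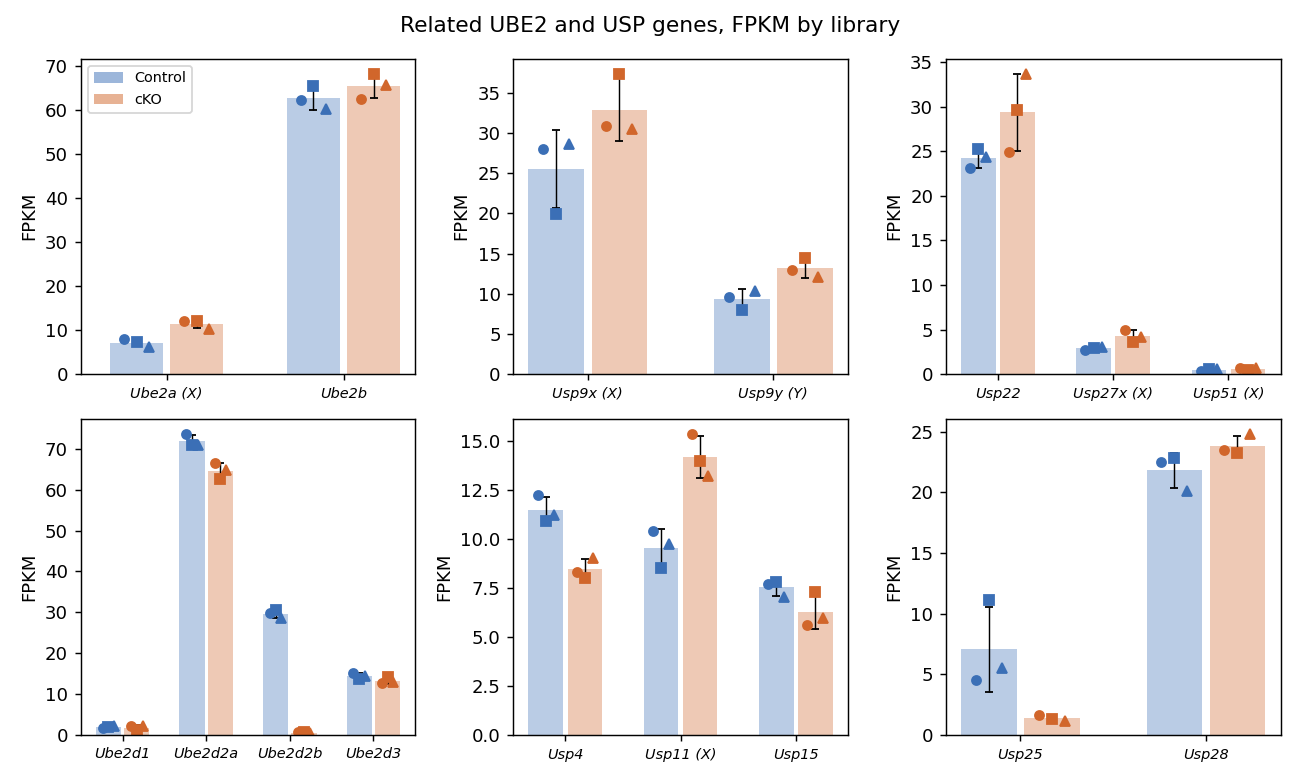
FPKM in each library for 6 sets of related *Ube2* and *Usp* genes, with bars at the mean and error bars of 1 SD (n = 3; circles, squares and triangles are replicates 1, 2 and 3). Within sets, *Ube2a* rose while *Ube2b* was not called, *Ube2d2b* fell to 0.577 FPKM beside *Ube2d2a* at 64.6 FPKM, and *Usp4* and *Usp11* moved in opposite directions.

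The other *Usp* genes that rose did so by 1.27-fold to 1.58-fold. *Usp53*, whose protein is found at cell junctions, measured 5.13, 4.54 and 5.59 FPKM in controls and 7.20, 9.48 and 7.49 FPKM in cKO cells (log2 fold change 0.57, SE 0.13, limma adjusted p = 0.015). Its relative *Usp54* rose from 8.08 ± 0.14 to 10.8 ± 0.59 FPKM (log2 fold change 0.38, SE 0.079, adjusted p = 0.011). *Usp14*, a protease of the proteasome that trims chains from its substrates, rose from 18.4 ± 0.43 to 23.5 ± 1.0 FPKM (log2 fold change 0.34, SE 0.068, adjusted p = 0.0088). *Usp5*, which recycles free chains, was not called (52.4 ± 2.9 and 51.0 ± 2.7 FPKM, adjusted p = 0.72). *Usp31* rose from 14.2 ± 1.2 to 18.1 ± 2.0 FPKM (log2 fold change 0.33, SE 0.10, adjusted p = 0.0498), and this call was lost whichever library was left out (adjusted p = 0.073 to 0.12), without the filter (0.082) and without the trend (0.071). *Usp34*, *Usp35*, *Usp38* and *Usp40* were not called, with log2 fold changes from -0.036 to 0.26.

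None of the 6 *Usp* genes of endosomes, endoplasmic reticulum, mitochondria and receptor traffic passed the test, with log2 fold changes from -0.17 to 0.18. *Usp7*, which stabilises MDM2 and other nuclear proteins, measured 44.7, 48.8 and 40.6 FPKM in controls and 41.2, 36.5 and 39.0 FPKM in cKO cells (adjusted p = 0.14). Of the 10 genes on the list of DNA damage and cell cycle, *Usp1* fell, *Usp11* rose and 8 were not called. Those not called were *Usp7*, *Usp10*, *Usp24*, *Usp28*, *Usp37*, *Usp45*, *Usp47* and *Usp48*, with log2 fold changes from -0.27 to 0.17. The name matches *Ube2cbp* (4.50 ± 0.22 and 5.77 ± 0.69 FPKM, adjusted p = 0.077) and *Usp6nl* (6.08 ± 0.36 and 6.19 ± 0.50 FPKM, adjusted p = 0.89) were not called either.

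**Figure D4:**
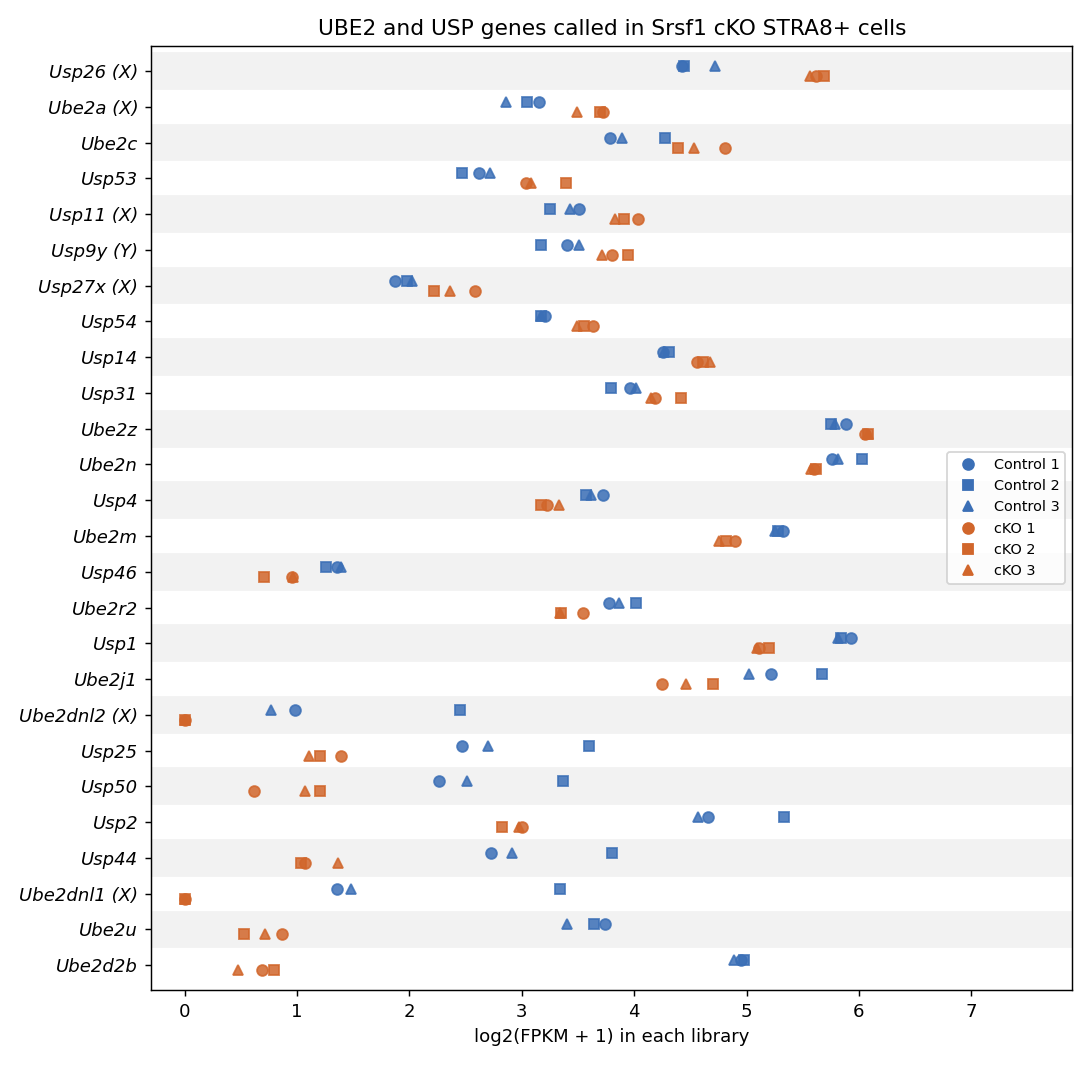
Log2(FPKM + 1) in each library for the 26 genes called in cKO cells, ordered by log2 fold change, with controls in blue and cKO libraries in orange; X and Y mark sex-linked genes. No gene has overlapping groups, and Control 2 (blue squares) lies to the right of the other controls in *Usp2*, *Usp25*, *Usp44*, *Usp50* and the *Ube2dnl* pair.

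The genes were also read by chromosome, which the name rule did not use. Of the 8 X-linked genes 7 were tested, and 4 of them rose (*Ube2a*, *Usp11*, *Usp26* and *Usp27x*), 2 fell (*Ube2dnl1* and *Ube2dnl2*) and *Usp9x* was not called. Of all X-linked genes tested 24.4% rose, beside 11.8% of all genes, and their median log2 fold change was 0.198. The summed level of the X-linked genes of the group was 72.4, 73.7 and 76.2 FPKM in Control 1 to 3 and 112, 118 and 105 FPKM in cKO 1 to 3, with *Usp26* giving most of the difference. The sum over the other 85 genes was 1648 to 1704 FPKM in controls and 1560 to 1615 FPKM in cKO cells.

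The 13 genes below the filter were *Ube2l6*, *Ube2ql1*, *Ube2v1*, *Usp13*, *Usp18*, *Usp29*, *Usp43*, *Usp51* and the *Usp17l* genes *Usp17la*, *Usp17lb*, *Usp17lc*, *Usp17ld* and *Usp17le*. The *Usp17l* genes are a cluster of near-identical deubiquitinase copies on chromosome 7. *Usp17le* had 0 fragments in every control and 17, 11 and 13 fragments in cKO 1 to 3 (0.544, 0.378 and 0.430 FPKM). Against the floor of 3 fragments per library this was at least 4.88-fold higher. *Usp17lb* had 0 fragments in the controls and 1 to 3 in the cKO libraries, *Usp17la* had 1, 0 and 0 in controls and 5, 2 and 9 in cKO cells, and *Usp17ld* had 0 throughout. Reads of these copies can be split between them, since 60.5% to 96.2% of their windows were unique, so the counts of single copies are uncertain.

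The rest of the pathway was read from lists of its other parts. Their counts stand beside 11.8% of all genes tested that rose and 22.2% that fell. None of 4 ubiquitin genes passed the test, and *Ubb*, the most abundant, measured 499.6 ± 58.0 and 439 ± 25 FPKM (adjusted p = 0.23). Of 9 E1 enzymes tested, *Uba3*, the NEDD8 E1 subunit, rose from 11.6 ± 0.69 to 14.3 ± 0.71 FPKM (adjusted p = 0.038), the opposite direction to its partner E2 *Ube2m*. *Uba1* and *Uba6*, which charge ubiquitin E2 enzymes, were not called. Of 6 E2 enzymes with other names, 1 fell, the autophagy E2 *Atg3*. Of 8 USP cofactors *Wdr48* and *Gmps* fell. Of 33 E3 ligases that work with these E2 enzymes 1 rose (*Siah1b*, X-linked) and 6 fell, among them *Anapc2*, the cullin of the anaphase-promoting complex (47.4 ± 2.0 to 29.3 ± 1.1 FPKM, adjusted p = 3.4e-04), the NEDD8-carrying cullins *Cul3* and *Cul4a*, *Mdm2* and *Rnf168*. The RAD6 partner *Rad18* was not called (adjusted p = 0.74).

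Deubiquitinases of the other classes gave 4 rises and 6 falls among 35 tested, beside 11.8% rises and 22.2% falls among all genes tested. *Otud6a*, X-linked like *Usp26*, measured 14.7, 18.4 and 16.6 FPKM in Control 1 to 3 and 33.2, 37.5 and 34.7 FPKM in cKO 1 to 3 (log2 fold change 1.05, SE 0.096, limma adjusted p = 2.5e-04). *Otub2* measured 9.60, 23.6 and 10.4 FPKM in controls and 2.26, 1.68 and 1.83 FPKM in cKO cells (log2 fold change -2.30, SE 0.32, adjusted p = 0.0017), and like the *Usp* genes that fell most it was highest in Control 2. *Mindy4* and *Stambp* fell to 26.5% and 28.6% of the control level. *Otud4*, *Otud7a* and *Vcpip1* rose by smaller amounts, and *Cops5*, *Mindy3* and *Mpnd* fell. *Uchl1*, abundant in spermatogonia, measured 268 ± 63 and 331 ± 89 FPKM and was not called (adjusted p = 0.39).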

How the data were processed

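RNA-seq was analysed from 3 control (Cre) and 3 *Srsf1* cKO libraries of STRA8+ cells, grouped by their labels. The authors deposited 1 table of FPKM values for 54532 genes with gene length and biotype. HISAT2 2.0.5 and mm10 are named in the submitters' processing notes, and the counting tool is not given in the sources used here. In each library 100% of the values were whole multiples of 1 fragment (tolerance 0.01 fragment), so fragment totals could be recovered. The deposited FPKM carry a factor for each library, 0.971 to 1.05 times the fragment sum, whose origin is not stated. With it the median-of-ratios factor was 1.006 in all 6 libraries, so the deposited values were already on that scale. Strandedness is not stated either. The number of fragments limits the precision of low genes, and a floor of 3 fragments per library was used for genes at 0, which covers counting error only.

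Values were transformed to log2(FPKM + 1), and 15451 genes that averaged 1 FPKM or more were compared between groups with limma 3.58.1 (R 4.3.3, eBayes with trend) on all 6 libraries without covariates, with Benjamini-Hochberg adjustment. A call needed an adjusted p of at most 0.05. The computation was tested on simulated data. Genes were named if called with groups apart, up to the 8 largest in each family and direction, or if on a fixed list of 20 genes, and genes below the filter could be named. The members, gene lists and rules were chosen with earlier results of these data known. Alternatives were a pseudocount of 0.1, no filter or a mean of at least 5 FPKM, median-of-ratios or quantile scaling, FPKM without the library factor, limma-voom on the recovered fragments, eBayes without trend, a block for the replicate number, a log2 fold change cut of 1 in either direction, and leaving out each library. Exon overlaps and unique 100-base windows were computed from annotated transcripts, and promoters are from RefSeq GRCm38.p6. Single values of some genes are not reported here.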

Additional observations from a re-analysis of the deposited data

How the results depend on the processing

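The counts of *Ube2* genes higher, *Ube2* genes lower, *Usp* genes higher and *Usp* genes lower were 3, 8, 8 and 7. They stayed within 1.5 times of these values with a pseudocount of 0.1, with limma-voom, without the library factor, without the filter and without the trend. Median-of-ratios factors were equal in all 6 libraries, so that scaling changes values only through the pseudocount and says nothing of stability. Without a filter the counts were 2, 6, 7 and 6, without the library factor 4, 7, 9 and 6, with limma-voom 4, 7, 10 and 7, and without the trend 2, 7, 7 and 7. Quantile normalization gave 10, 5, 19 and 5, with all genes at 5164 higher and 2527 lower beside 1821 and 3437. A mean of at least 5 FPKM gave 3, 6, 7 and 3 with fewer genes tested, and a minimum absolute log2 fold change of 1 gave 0, 4, 1 and 4 by construction. Leaving out 1 library gave 1 to 4, 4 to 7, 5 to 7 and 6 to 7, with 969 to 1767 of all genes higher and 2693 to 3510 lower.

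The labels do not say whether the replicate numbers pair the libraries. Deviations of same-numbered libraries correlated at -0.0014, -0.11 and 0.016, and those of differently numbered libraries at -0.155 to 0.135. With 3 libraries per group such values cannot decide whether the libraries are paired. With the replicate number as a block the counts were 1, 5, 2 and 5, with 891 of all genes higher and 2870 lower, and the calls of *Usp14*, *Usp53* and *Usp54* were lost under that setting alone.

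The named genes' values were also counted over the alternatives, with the replicate block included and median-of-ratios scaling and the fold change cut left out. Of these values 416 kept direction and call, 68 lost the call, 6 gained it and 7 changed sign. The changes of sign were those of *Ube2t* without Control 2 (-0.069) and without cKO 2 (-0.056), within a range of -0.069 to 0.067 over the left-out libraries, and of *Usp39* under quantile normalization (0.099), without the library factor (0.039), with limma-voom (0.039), without Control 2 (0.030) and without cKO 1 (0.029), within a range of -0.048 to 0.030 over the left-out libraries, none of which was called. Apart from the construction named above, the cause of these changes was not tested. Depth sets the bounds given for the *Ube2dnl* pair and *Usp17le*, which rest on the floor of 3 fragments per library.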
